A study of Homo sapiens with 4 samples.

Results

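RNA recovered on streptavidin with biotin-labelled miR-34a was set against total RNA of cells given a miR-34a mimic, gene by gene, to describe which RNAs made up a larger or a smaller share of the pulldown library than of the total RNA library. The members were the 4896 genes with at least 20 reads in the miR-34a pulldown, of 10606 genes listed with reads in both full tables. Reads of the same RefSeq transcripts were joined, summed per gene name and divided by the total of each library. The ratio of the pulldown share to the total RNA share, on the log2 scale, is called the recovery of a gene below. A recovery of 0 means an equal share of both libraries.

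HEK293T, an established line derived from embryonic kidney and transformed further with the large T antigen of SV40, was the source of 4 libraries: a miR-34a pulldown (labelled MIR_PD), a control pulldown (NC_PD), total RNA after a miR-34a mimic (mir34a_mimic) and total RNA after a control mimic (NC_mimic). Each group had 1 library, so replicate spread is unknown and no p-value is given. The sources used here do not say what the control oligonucleotide is, which strand of miR-34a carried the biotin, or the dose and time of each treatment. The miR-34a pulldown held 546180 reads, the control pulldown 306996, the mimic total RNA 42679778 and the control mimic total RNA 45493090. The depth of the pulldown therefore sets the precision for most members. For the clustered histone genes below, with medians of 583 pulldown and 24 mimic reads, the total RNA count largely sets it. The tables list a transcript only where its control library has at least 1 read, so RNAs seen with miR-34a alone were not analysed here. Of 7 markers of HEK293 cells with joined rows, 6 were members (VIM, KRT8, KRT18, NEFL, IGF2BP1 and LIN28B), with 2979 reads for LIN28B to 53787 for KRT8 in the mimic total RNA. Their median recovery was 0.13, with KRT18 higher at 1.10. Of 4 fibroblast markers with joined rows, PDGFRA and FBN1 were members, at 6.51 and 0.89, and no blood cell marker had a joined row. The lists of nuclear long noncoding RNAs and of small noncoding RNA genes had no joined row either and were not analysed here.

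A microRNA is loaded into an Argonaute protein, which it guides to messenger RNAs that pair with its seed, the bases next to its 5′ end. miR-34a is transcribed under the control of p53 and represses genes of cell cycle entry, survival and growth factor signalling. In a biotin pulldown, labelled microRNA is introduced into cells, the lysate is passed over streptavidin, and the RNA that stays behind is sequenced. Total RNA serves as the reference for such a sample, since the abundance of an RNA enters its read count in both.

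The sequences of both strands are shown because the seed defines what the bait can pair with; bases 2 to 8 are in capitals, 5′ to 3′, from RefSeq.
hsa-miR-34a-5p: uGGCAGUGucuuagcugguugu
hsa-miR-34a-3p: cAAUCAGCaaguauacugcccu
The 5p strand lies on the minus strand of chromosome 1 of GRCh38.p14, at chr1:9151735-9151756, and the 3p strand at chr1:9151693-9151714. The site that pairs with the 5p seed reads CACUGCC, and that of the 3p seed reads GCUGAUU. Transcript sequences were not used here, so no gene below was searched for these sites.

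Over the 4896 members, recovery had a median of 0.07 with quartiles of -0.49 and 0.61, and ran from -3.52 to 14.48. A gene was called where its recovery differed from 0 by at least 2-fold and its 95% counting interval excluded 0. By that rule 621 members, 12.7% of those compared, were higher in the miR-34a pulldown, and 518, 10.6%, were lower. Higher genes thus made up 54.5% of all calls. With TMM scaling, which moved the median to 0.29, the calls were 925 higher and 357 lower, or 72.2% higher, so the balance of the 2 directions rests on the scaling. The intervals cover counting error of these libraries only.

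The minimum of 20 pulldown reads bears on these counts. A gene with equal recovery reaches 20 pulldown reads at 1563 reads in the mimic total RNA, which is 36.6 CPM (reads per 1000000 reads of the library). The 608 members under that level had to lie above 0, and 183 of the 621 higher members were past 2-fold by the rule alone. Among the 135 genes with exactly 20 reads, recovery ran from -2.53 to 3.86 with a median of -0.29, and among the 160 genes just outside, with 19 reads, from -3.06 to 2.13 with a median of -0.35. The comparison was therefore repeated on all 5608 genes at or above 36.6 CPM of total RNA, whatever their pulldown reads. Their median recovery was -0.34, 310 (5.53%) were higher and 1395 (24.9%) lower. Of these genes, 1320 had fewer than 20 pulldown reads and 11 had none. For the gene lists below, the values of the genes chosen on total RNA alone stand beside those of the members. The background for the members of each list is the share called of all members, 12.7% higher and 10.6% lower. For list genes chosen on total RNA alone, the background is 5.53% higher and 24.9% lower.

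**Figure D1:**
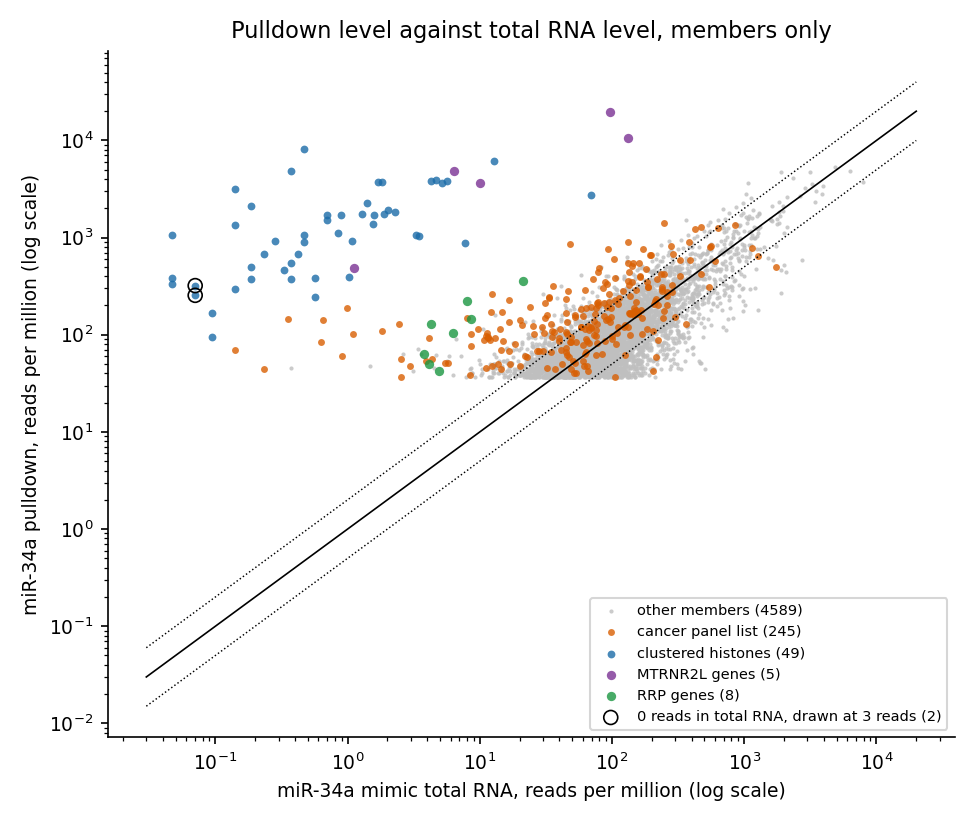
Level in the miR-34a pulldown against level in the miR-34a mimic total RNA, both in CPM on log axes, 1 point a member; the solid line marks equal levels and the dotted lines a 2-fold difference. Clustered histone genes (blue), MTRNR2L genes (purple) and RRP genes (green) lie above the upper dotted line, and 2 histone genes with 0 total RNA reads are drawn at 3 reads.

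The control pulldown over the control mimic total RNA gives the same comparison without labelled miR-34a. In that control pair the same 4896 genes had a median of -0.09, with 540 higher and 816 lower. Of the 621 members higher in the miR-34a pair, 282 were also called higher in the control pair, which is 45.4% of the first list and 52.2% of the second, and 528 of the 621 lay above 0 there. Of the 518 lower members, 380 were also called lower in the control pair, 73.4% of the first list and 46.6% of the second, and 505 of the 518 lay below 0 there. Across the genes, recovery in the pairs had a Spearman correlation of 0.69 and a Pearson correlation of 0.84 over 4896 genes. Without histone and MTRNR2L genes the values were 0.68 and 0.67 over 4842 genes. The genes are not independent replicates, and they share transcript length, base composition and library preparation. Much of the spread in recovery was thus present in the control pair as well, so the gene lists below are given in both.

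The highest recoveries belonged to the clustered histone genes. These genes, gathered mainly on chromosomes 6 and 1, encode the histones that package newly made DNA during S phase, and their messenger RNAs end in a stem-loop in place of a poly(A) tail. Of 52 such genes with joined rows, 49 were members, and all 49 were higher in the pulldown, beside 12.7% of all members. Their recovery ran from 5.33 to 14.48 with a median of 10.64. In the control pair all 49 were higher too, with a median of 10.28. By the difference between the pairs, defined below, 11 (22.4%) of the 49 were higher than in the control pair and 2 lower. Of all members, 7.66% were higher by that measure. Of the 49, 48 had so few total RNA reads that the rule already put them past 2-fold. All 12 of the highest members overall were clustered histone genes.

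The 52 genes together took 46049 reads, or 8.43%, of the miR-34a pulldown and 27077 reads, or 8.82%, of the control pulldown. In total RNA they took 6312 reads, or 0.0148%, after the mimic and 10790 reads, or 0.0237%, after the control mimic. Summed over the genes, the share was 570.1-fold higher in the miR-34a pulldown than in its total RNA, and 371.9-fold higher in the control pair. The pulldown libraries thus held nearly equal shares of histone RNA, and the total RNA libraries far less. HIST1H1E, which encodes a linker histone (chromosome 6, 26156329 to 26157115), had 4447 reads in the miR-34a pulldown, 2462 in the control pulldown, 20 in the mimic total RNA and 24 in the control mimic total RNA. Its recovery was 14.08 (95% counting interval 13.20 to 15.15), against 13.89 in the control pair. HIST1H3B, a core histone H3 gene, had 1713, 1048, 6 and 26 reads in the same order, with a recovery of 14.45 (12.89 to 16.73).

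All 5 histone proteins were represented. The 3 H1 genes had a median recovery of 12.15, the 16 H2A genes 10.78, the 12 H2B members 9.78, the 7 H3 genes 11.11 and the 11 H4 genes 10.08. The corresponding control pair medians were 11.73, 10.67, 9.50, 10.14 and 10.49. By cluster, the 35 HIST1 members on chromosome 6 had a median of 10.81 and the 11 HIST2 members on chromosome 1 a median of 9.91. At the top, HIST1H4D, a core histone H4 gene, had 583 reads in the miR-34a pulldown, 290 in the control pulldown, 2 in the mimic total RNA and 6 in the control mimic total RNA. A pair of members had no read in the mimic total RNA. With that library set to 3 reads, HIST1H1D with 175 pulldown reads was 4558-fold higher and HIST1H2AJ with 139 was 3621-fold higher. Their recoveries were 12.15 and 11.82, with counting intervals that start at 10.83 and 10.49 and have no upper end. The lowest of the clustered histones was HIST1H2BK, an H2B gene with 1511, 814, 2944 and 4216 reads and a recovery of 5.33 (5.20 to 5.45). HIST1H1C, a linker histone gene with 3392, 1942, 549 and 1114 reads, was the lowest of the 3 H1 genes at 8.92 (8.73 to 9.10). The histone genes are near copies of one another, so the split of reads among them is uncertain while their sum is less so.

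Histone genes outside the clusters gave the opposite picture. Replication-independent histone genes encode variants that are made throughout the cell cycle, and their messenger RNAs are polyadenylated. This list was drawn after the values were seen. None of its 7 members was higher and 3 were lower, with a median recovery of -0.74 and a range of -1.53 to -0.35, and their control pair median was -1.34. H3F3B, which encodes the variant H3.3, had 139 reads in the miR-34a pulldown, 73 in the control pulldown, 30024 in the mimic total RNA and 28180 in the control mimic total RNA, and a recovery of -1.47 (-1.83 to -1.13). H2AFZ, the gene of the variant H2A.Z, had 143, 87, 23487 and 25755 reads and a recovery of -1.07 (-1.43 to -0.74). H2AFX, whose transcripts are known in a stem-loop and a polyadenylated form, lay between the groups with 835, 547, 15533 and 17109 reads and a recovery of 2.07 (1.93 to 2.21), against 2.24 in the control pair. It was named after its values were seen. The sources used here do not say whether the total RNA libraries were selected by poly(A) tail or by removal of ribosomal RNA, and the part of that step in these differences was not tested.

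**Figure D2:**
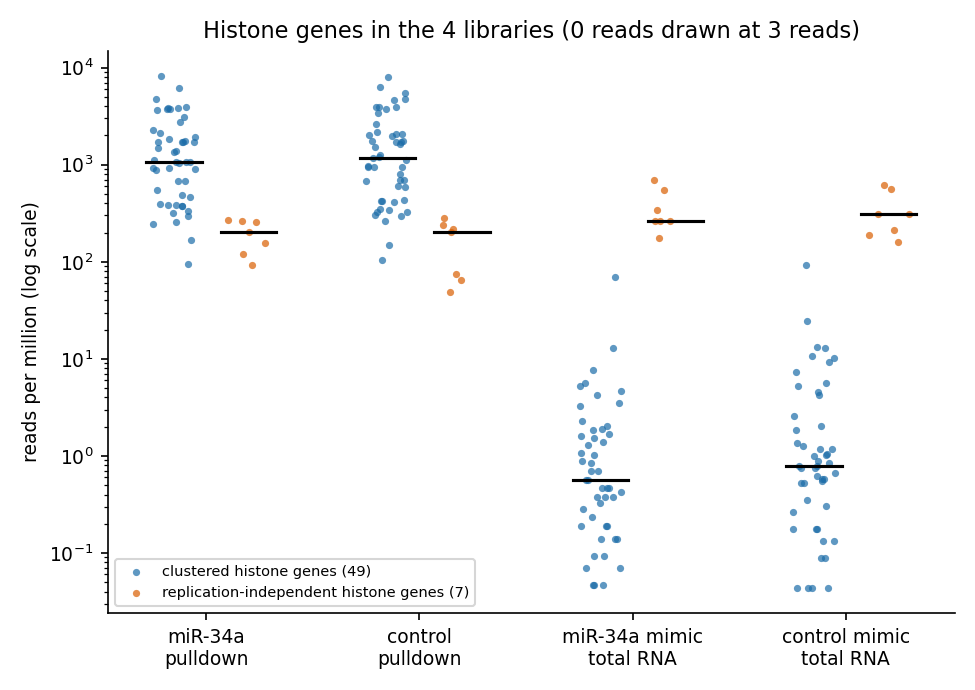
Level in CPM (log axis) of the 49 clustered histone members (blue) and the 7 replication-independent histone genes (orange) in each of the 4 libraries, 1 point a gene, with a black bar at the median. The median of the clustered genes is the higher one in both pulldowns, and in both total RNA libraries every clustered gene lies below every replication-independent gene; 0 reads are drawn at 3 reads.

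MTRNR2L genes formed the next group. They are nuclear loci whose sequence is nearly identical to the 16S ribosomal RNA gene of mitochondria, so reads of the mitochondrial RNA cannot be told apart from theirs. The list was drawn after the values were seen. All 5 members were higher in the miR-34a pulldown, with recoveries of 6.32 to 9.59, and all 5 in the control pair, with a median of 8.59. For 3 of the 5 the rule alone put them past 2-fold. Together they took 3.93% of the miR-34a pulldown, 2.82% of the control pulldown, 0.0248% of the mimic total RNA and 0.0226% of the control mimic total RNA, a 158.9-fold difference in the miR-34a pair and a 125.1-fold difference in the control pair. MTRNR2L8 was the most read gene of the miR-34a pulldown, with 10732 reads there, 4122 in the control pulldown, 4145 in the mimic total RNA and 4020 in the control mimic total RNA. MTRNR2L2 had 5812, 2163, 5669 and 5556 reads and a recovery of 6.32 (6.25 to 6.40). None of the 5 differed from the control pair by 2-fold.

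RRP genes, whose products process ribosomal RNA precursors in the nucleolus, were a smaller group with high recovery, also drawn after the values were seen. All 8 members were higher in the miR-34a pulldown, with recoveries of 3.09 to 4.91, and 7 of the 8 in the control pair. For 7 of the 8 the rule alone put them past 2-fold. RRP7A had 195 reads in the miR-34a pulldown, 88 in the control pulldown, 900 in the mimic total RNA and 945 in the control mimic total RNA, with a recovery of 4.08 (3.75 to 4.40). RRP1B had 121, 103, 339 and 391 reads and a recovery of 4.80 (4.35 to 5.23). RRP15 was the exception in the control pair: it had 23 reads with miR-34a and 1 with the control, a recovery of 3.09 against -0.70. High recovery did not extend over the wider list of ribosome biogenesis genes, of which 2 of 33 members were higher and 2 lower, with a median recovery of 0.07 and a control pair median of -0.18; the 37 chosen on total RNA alone had a median of -0.16.

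The lowest recovery of all members was that of TXN, the gene of the redox protein thioredoxin (chromosome 9, 110243810 to 110256507). It had 24 reads in the miR-34a pulldown, 32 in the control pulldown, 21526 in the mimic total RNA and 22002 in the control mimic total RNA, for a recovery of -3.52 (-4.47 to -2.72). The next lowest were CD63, a tetraspanin of late endosomes, at -3.19, TMED2, a cargo receptor of the early secretory pathway, at -3.18, SUMO2, a small protein modifier, at -3.09 and COX7C, a small subunit of cytochrome c oxidase, at -2.93. HSP90B1, the HSP90 chaperone of the endoplasmic reticulum, had 98, 65, 54421 and 57456 reads and a recovery of -2.83 (-3.26 to -2.43). FTH1, the ferritin heavy chain, had 146, 83, 80516 and 65477 reads and a recovery of -2.82 (-3.17 to -2.49). The rest of the 12 lowest were TFRC, ATP6V0C, HNRNPD, BCAP31 and SLC16A1, at -2.79 to -2.66. All 12 were also called lower in the control pair, at -3.31 to -1.82.

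As a list, genes of the secretory pathway and of endoplasmic reticulum chaperones had the lowest median of the lists compared. None of their 40 members was higher and 20 were lower, beside 10.6% lower of all members, with a median of -0.92 and a control pair median of -0.84. Among the 52 of these genes chosen on total RNA alone, 31 were lower and none higher, with a median of -1.18 against -0.34 for all such genes. KDELR1 and KDELR2, receptors that return escaped proteins to the endoplasmic reticulum, had recoveries of -2.64 (-3.59 to -1.83) and -2.55 (-3.46 to -1.77). The lectin chaperones CANX and CALR were lower at -2.12 and -1.78, the translocation genes SEC62, SEC63 and TRAM1 at -2.06, -1.77 and -1.96, and the disulfide isomerase PDIA6 at -1.57, all named after their values were seen. Among 9 genes of vesicle coat proteins, which act on the cytosolic face of transport vesicles, COPB2 was lower at -1.17, and the other 8, from SEC23A at -0.80 to SEC13 at 0.51, had no call.

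A further 4 lists, of splicing, translation, heat shock and proteasome genes, had a larger share of lower members than the 10.6% of all members, although most of their members had no call. A member could be called lower only at 2-fold of 36.6 CPM or more in total RNA, so some of all members could not be. Of 70 splicing factor members, 24 (34.3%) were lower and 5 higher, with a median of -0.65 and a control pair median of -0.67. HNRNPD, HNRNPH3 and LUC7L3, all RNA-binding splicing regulators, had the lowest values of the list at -2.70, -2.52 and -2.35. Of 48 translation factor members, 14 (29.2%) were lower and 2 higher, with a median of -0.56 and a control pair median of -0.76. EIF1, which monitors start codon choice, had 37 reads in the miR-34a pulldown, 14 in the control pulldown, 13193 in the mimic total RNA and 12994 in the control mimic total RNA, and a recovery of -2.19 (-2.93 to -1.54). Of 29 heat shock chaperone members, 10 (34.5%) were lower and none higher, with a median of -0.51 and a control pair median of -0.50, and PTGES3, the HSP90 cochaperone p23, was the lowest at -2.45. Of 31 proteasome subunit members, 10 (32.3%) were lower and none higher, with a median of -0.40 and a control pair median of -0.54, and PSMA1, PSMA5 and PSMA4, subunits of the core particle's outer rings, were at -1.85, -1.78 and -1.76. Among all genes chosen on total RNA alone, 24.9% were lower. In these lists 29 of 75 splicing, 14 of 48 translation, 12 of 31 heat shock and 12 of 33 proteasome genes were. The 29.2% of translation factors, the same in both sets, lay closest to that 24.9%. Medians of genes so chosen were below the -0.34 of all genes, at -0.72 for splicing, -0.56 for translation, -0.59 for heat shock and -0.41 for the proteasome.

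Genes of ribosomes and mitochondria had medians nearer to equal shares, with members on both sides. The 80 cytosolic ribosomal protein members had a median of 0.03, with 10 (12.5%) higher and 4 lower, against a control pair median of -0.37; the 81 chosen on total RNA alone had the same median and counts. RPS2 had 2621 reads in the miR-34a pulldown, 1281 in the control pulldown, 268580 in the mimic total RNA and 299855 in the control mimic total RNA, a recovery of -0.39 (-0.47 to -0.31). RPS15 was the highest of the list at 1.79 (1.70 to 1.88) and RPS13 the lowest at -1.62 (-2.02 to -1.25), a span far wider than their counting intervals although both encode proteins of the small subunit. EEF2, the translocation factor of translation, had 2921, 1984, 207342 and 201244 reads and a recovery of 0.14 (0.06 to 0.21). The 51 mitochondrial ribosomal protein members had a median of 0.24 with 8 (15.7%) higher and 3 lower and a control pair median of 0.14, led by MRPL23 at 2.27. The 60 chosen on total RNA alone had 7 higher, 13 lower and a median of -0.09. All such genes had 5.53% higher, 24.9% lower and a median of -0.34. The 3 members of a list of snoRNA host genes, EEF2, NCL and NOP56, had no call. The 65 respiratory chain members had a median of -0.21 with 4 higher and 11 (16.9%) lower and a control pair median of -0.57, from COX7C at -2.93 to NDUFB7, a subunit of complex I, at 2.16; the 70 chosen on total RNA alone had 4 higher, 17 lower and a median of -0.35. The 19 aminoacyl-tRNA synthetase members had a median of -0.10 and a control pair median of -0.37. Of these, 2 were lower, RARS at -1.21 and NARS at -1.07, and under TMM scaling neither kept that call. The 20 chosen on total RNA alone had 3 lower and a median of -0.13. A list of 27 common reference genes had 2 higher and 8 (29.6%) lower, with medians of -0.07 and, in the control pair, -0.09; TFRC at -2.79, B2M at -2.29 and PPIA at -2.01 were the lowest. The 26 of them chosen on total RNA alone had 1 higher, 8 lower and a median of -0.12, beside 24.9% lower of all such genes.

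A list of very long cytoskeletal and scaffold genes lay on the high side in both pairs. Of its 35 members, 15 (42.9%) were higher and none lower, with a median of 0.88 and a control pair median of 0.98. Among the 35 of these genes chosen on total RNA alone, the median was 0.86, with 13 higher and 1 lower. MDN1, a giant ATPase of ribosome assembly, had 214 reads in the miR-34a pulldown, 130 in the control pulldown, 4580 in the mimic total RNA and 6598 in the control mimic total RNA, and a recovery of 1.87 (1.57 to 2.15). UBR4, a giant ubiquitin ligase, had 458, 286, 10037 and 11276 reads and a recovery of 1.83 (1.64 to 2.03). The correlation of recovery with the span of the gene on the genome was 0.09 over 4874 members and 0.04 over 5580 genes chosen on total RNA (Spearman). Gene span is mostly intron and does not stand for transcript length, which was not used here.

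Genes of the silencing machinery that a microRNA works through were called in shares near those of all members. Of 22 members, 3 (13.6%) were higher and 2 (9.09%) lower, with a median recovery of 0.30 and a control pair median of -0.04. The 30 chosen on total RNA alone had 2 higher, 5 lower and a median of -0.17. AGO2, the Argonaute that can cut its target, had 43 reads in the miR-34a pulldown, 21 in the control pulldown, 1252 in the mimic total RNA and 1082 in the control mimic total RNA. Its recovery was 1.42 (0.73 to 2.04) in the miR-34a pair and 1.52 in the control pair, so the value was as high without miR-34a. EDC4, a scaffold of decapping, was at 1.40 (1.10 to 1.69), and DICER1, the nuclease that cuts microRNA precursors, was higher at 1.07. PABPC1, the poly(A)-binding protein, was lower at -1.23 (-1.53 to -0.95), as in the control pair at -1.87. The scaffold genes TNRC6A, TNRC6B and TNRC6C, partners of Argonaute, lay at 0.80, 0.44 and 0.39 without a call, and they and DICER1 were named after their values were seen.

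**Figure D3:**
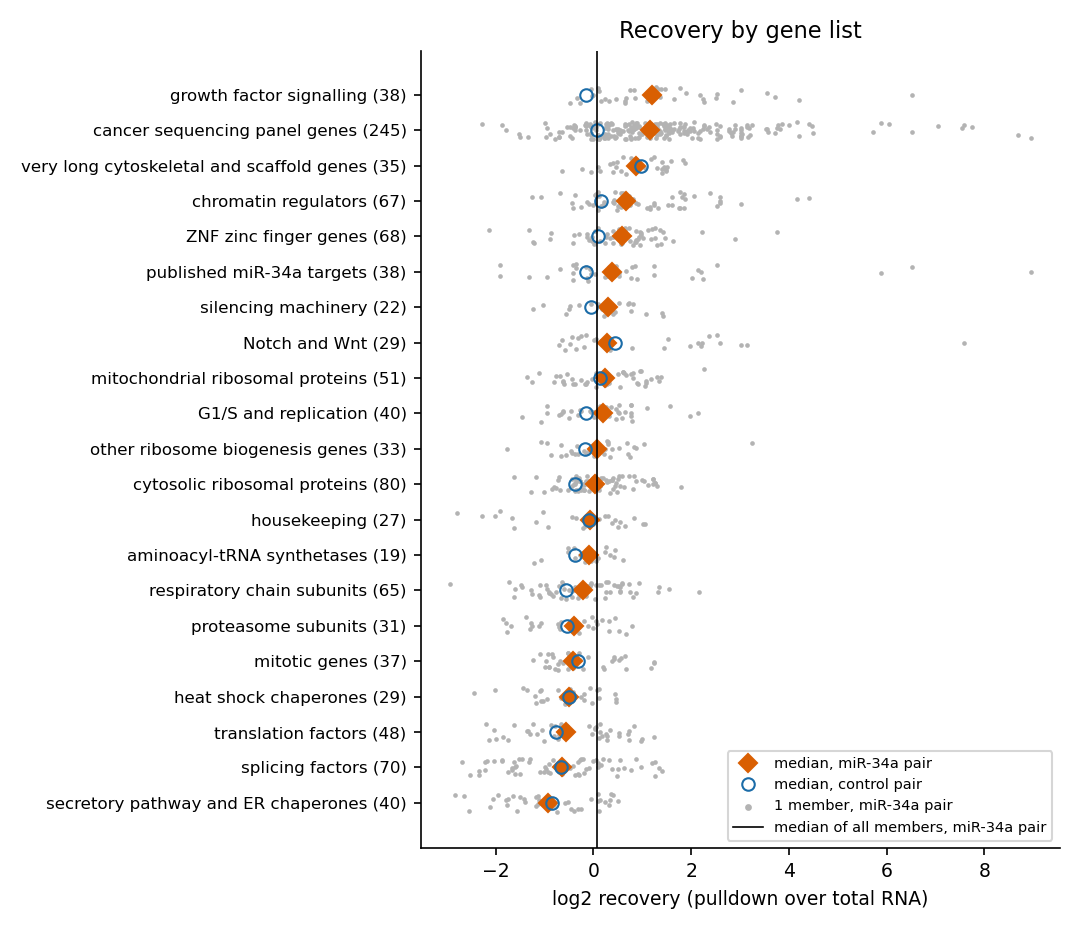
Recovery (log2 share in the pulldown over share in total RNA) of each gene list with 19 or more members except the clustered histones; grey points are members in the miR-34a pair, orange diamonds their median, blue circles the median of the same genes in the control pair, and the black line the median of all members. Secretory genes stand lowest at -0.92, and the growth factor and cancer panel lists highest at 1.19 and 1.15, where the control pair medians are -0.16 and 0.08.

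Genes reported as miR-34a targets came next. Of 64 with joined rows, 38 were members. Of these, 10 (26.3%) were higher in the miR-34a pulldown and 3 (7.89%) were lower, with a median of 0.37 and a control pair median of -0.16. The list lay 0.30 above the median member, and without cancer panel genes, described below, -0.17 from it. Among the 38 target genes chosen on total RNA alone, 4 were higher and 10 lower, with a median recovery of -0.13 beside -0.34 for all such genes. The rule alone put 4 of the 10 higher targets past 2-fold. The mimic total RNA is the denominator here, so a target with fewer reads in it has a higher recovery at the same pulldown count.

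The higher targets included growth factor and Notch receptors, a kinase and transcription factors. The target list shares genes with the cancer panel list described below, PRDM1 among them. Of 38 growth factor signalling members, which include PDGFRA and MET, 34 are panel genes. Among the 245 panel members 52.7% were higher in the miR-34a pair and 43.3% exceeded the control pair. Whether the higher targets differ from other panel genes was not tested. PDGFRA, a receptor of platelet-derived growth factor (chromosome 4, 54229293 to 54298245), had 55 reads in the miR-34a pulldown, 1 in the control pulldown, 47 in the mimic total RNA and 110 in the control mimic total RNA. Its recovery was 6.51 (5.67 to 7.37), against 0.43 in the control pair, a difference of 6.08 (3.13 to 9.04). MET, the receptor of hepatocyte growth factor, had 81, 10, 1337 and 1986 reads, a recovery of 2.24 (1.75 to 2.70) and a difference from the control pair of 2.67 (1.37 to 3.96). SOX2, a transcription factor of stem cells, had 65, 4, 1264 and 1709 reads, a recovery of 2.01 (1.45 to 2.52) and a difference of 3.53 (1.67 to 5.40). In CPM, PDGFRA, MET and SOX2 each had their highest level in the miR-34a pulldown, above the other 3 libraries. Against the mimic total RNA this follows from how they were picked. All lay under 1563 mimic reads, and PDGFRA was past 2-fold by the rule alone.

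The receptors NOTCH1 and NOTCH2 were high in both pairs. NOTCH1 had 326 reads in the miR-34a pulldown, 79 in the control pulldown, 4413 in the mimic total RNA and 4895 in the control mimic total RNA, with a recovery of 2.53 (2.29 to 2.76) against 1.26. NOTCH2 had 420, 137, 7378 and 8875 reads, with a recovery of 2.15 (1.95 to 2.35) against 1.19. Of the remaining higher targets, PRDM1, a transcriptional repressor, was at 8.95 on 38 and 6 reads, and MYCN at 5.89 on 59 and 78 reads. SMAD4, the shared mediator of TGF-beta signals, and PLK1, a mitotic kinase, were both at 1.23. In the control pair PRDM1, MYCN, SMAD4 and PLK1 stood at 5.21, 4.40, -0.97 and 0.37, on 2, 2, 8 and 72 control pulldown reads. PRDM1 and SMAD4 were called higher than in the control pair, and MYCN and PLK1 were not. The lower targets were STMN1, a microtubule destabiliser, at -1.92, LDHA, lactate dehydrogenase A, at -1.91 and HMGA2, a chromatin protein, at -1.32, and in the control pair these stood at -1.93, -1.95 and -1.61. The cell cycle targets CCND1, CDK4, CDK6 and E2F1 lay at 0.31, -0.08, -0.05 and 0.53 without a call, named after their values were seen.

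**Figure D4:**
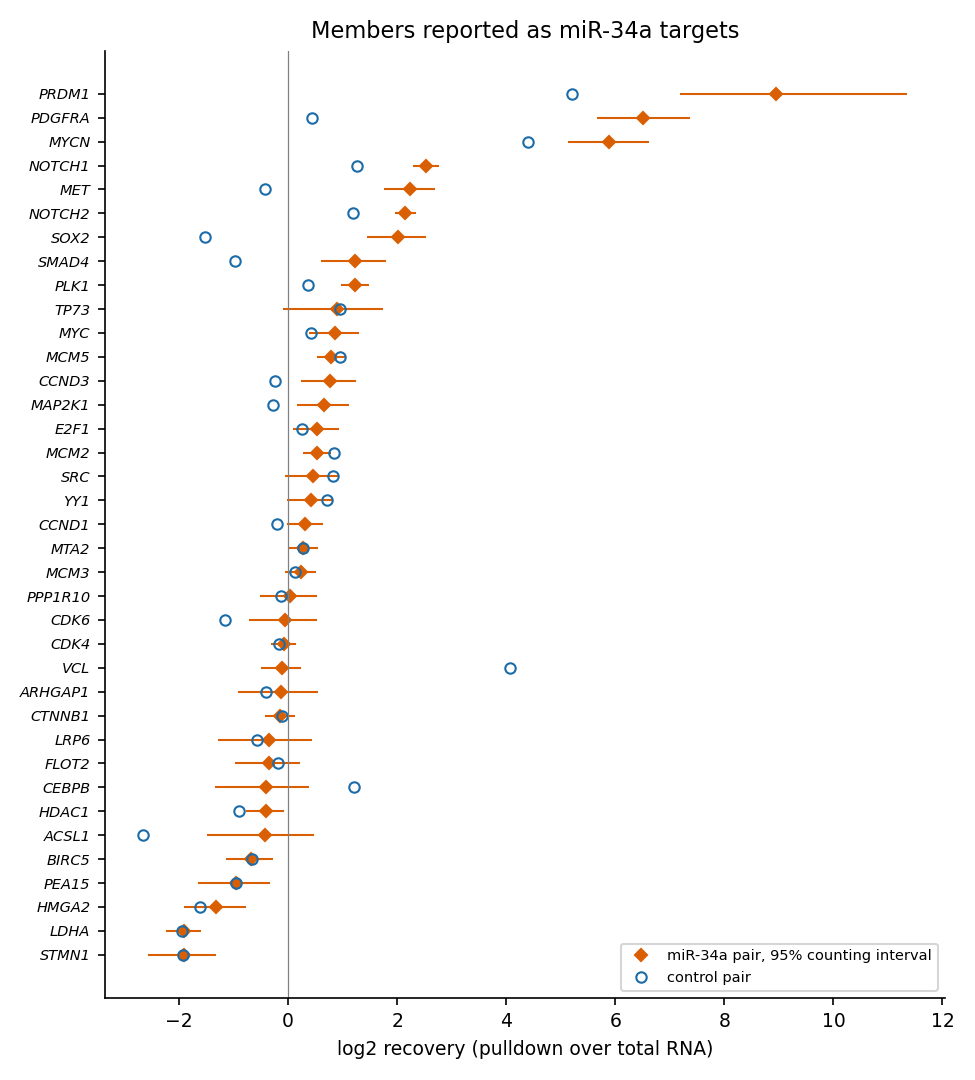
Recovery (log2 scale) of 37 of the 38 members reported as miR-34a targets, in the miR-34a pair (orange diamonds, bars are 95% counting intervals) and in the control pair (blue circles). PDGFRA, MET and SOX2 stand to the right of their control pair values, while STMN1 and LDHA overlap them, and VCL lies far to the left of its control pair value.

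The difference between the pairs was taken as recovery in the miR-34a pair minus recovery in the control pair, with an approximate 95% counting interval and the same 2-fold rule. Among the members 375 (7.66%) were higher and 137 (2.80%) lower than in the control pair. Among genes chosen on total RNA alone, 267 (4.76%) were higher and 214 (3.82%) lower. Members needed 20 reads in the miR-34a pulldown and none in the control pulldown beyond the 1 read a listed transcript has, and the median difference was 0.15 among members and 0.05 among genes chosen on total RNA. Of the 375 higher genes, 323 had at least a 2-fold larger share of the miR-34a than of the control pulldown, and 13 had at least a 2-fold smaller share of the mimic than of the control mimic total RNA. The count rests on thin control reads, since 123 of the 375 had 5 or fewer reads in the control pulldown.

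Genes of cancer sequencing panels, a list of oncogenes, tumour suppressors and other genes often tested in tumours, made up a larger share of these higher genes than of all members. Their 245 members had a median recovery of 1.15 and a control pair median of 0.08. In the miR-34a pair 129 (52.7%) were higher and 7 lower, against 10.6% higher of the 4651 other members; 69 panel members lay under the equal-recovery level of total RNA and 45 were past 2-fold by the rule alone. Against the control pair 106 (43.3%) were higher, against 5.78% of the others, so 106 of the 375 were panel genes and 269 were not. Among the 184 panel genes chosen on total RNA alone, the median was 0.63 against -0.20 in the control pair, with 62 higher and 12 lower. The list was drawn up with earlier results of these data known, and with 1 library a group an effect of the bait and a difference between 2 libraries cannot be told apart.

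The panel members farthest from the median were not all apart from the control pair. After PRDM1, TEK, a receptor kinase of blood vessels, had 79 reads in the miR-34a pulldown, 6 in the control pulldown, 15 in the mimic total RNA and 4 in the control mimic total RNA, a recovery of 8.68 (7.54 to 10.04) against 7.80 and no call of a difference. KDR, a receptor of vascular endothelial growth factor, had 77, 6, 28 and 26 reads, a recovery of 7.75 (6.83 to 8.74) against 5.10. The panel genes named next, from the chromatin, growth factor and Notch lists, were all called higher than in the control pair. Their differences ran from 2.14 for KMT2A to 5.67 for TET2, beside 2.65 for KDR. All were picked by recovery, which shares its pulldown count with the difference, so that call partly follows from the pick. PRDM1, TEK, KDR, TET2, EGFR and NOTCH4 had so few total RNA reads that the rule alone put them past 2-fold. TET2, a DNA demethylase (chromosome 4, 105145875 to 105279803), had 145 reads in the miR-34a pulldown, 2 in the control pulldown, 529 in the mimic total RNA and 704 in the control mimic total RNA, a recovery of 4.42 (4.03 to 4.80) against -1.25. KMT2C, a histone H3 methyltransferase, had 467, 25, 2046 and 2688 reads, a recovery of 4.16 (3.95 to 4.36) against 0.46. KMT2A, a methyltransferase of the same family, had 413, 68, 3979 and 5469 reads, a recovery of 3.02 (2.81 to 3.23) against 0.88. In TET2 and KMT2C the total RNA libraries differed by -0.32 and -0.30 on the log2 scale (mimic over control mimic) and the pulldown libraries by 5.35 and 3.39 (miR-34a over control). EGFR, the receptor of epidermal growth factor, had 81, 5, 341 and 473 reads, a recovery of 4.21 (3.68 to 4.72) against 0.65. NOTCH4, a Notch receptor of blood vessels, had 103, 2, 42 and 55 reads, a recovery of 7.58 (6.82 to 8.39) against 2.43.

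Of 38 growth factor signalling members, 20 (52.6%) were higher and none lower, beside 12.7% higher of all members, with a median of 1.19 and a control pair median of -0.16. The rule alone put 8 of the 20 past 2-fold, and the 31 chosen on total RNA alone had 9 higher, 2 lower and a median of 0.46. On the panel list are 34 of the 38, and without panel genes the list lay -0.10 from the median member. Of 67 chromatin regulator members, 25 (37.3%) were higher and 2 lower, with a median recovery of 0.67 and a control pair median of 0.15, and 16 (23.9%) exceeded the control pair, beside 7.66% of all members. The 64 chosen on total RNA alone had 22 higher, 4 lower and a median of 0.60. Of 29 Notch and Wnt members, 12 (41.4%) were higher and none lower, although the median of 0.28 lay below the control pair median of 0.45. The rule alone put 5 of the 12 past 2-fold, and the 25 chosen on total RNA alone had 5 higher, 4 lower and a median of -0.19. The list lay 0.21 above the median member, 1.57 above it at a minimum of 50 pulldown reads, and -0.13 from it without panel genes. In all, 8 of the 29 exceeded the control pair, among them APC, a scaffold of beta-catenin destruction, at 3.14 (2.81 to 3.47) against 0.83, and AXIN2, of the same complex, at 3.03 (2.45 to 3.56) against 0.47. The 68 ZNF zinc finger members had 15 (22.1%) higher and 4 lower, with a median of 0.59 and a control pair median of 0.10. The 72 chosen on total RNA alone had 7 higher and 18 lower, with a median of -0.11. All such genes had 5.53% higher, 24.9% lower and a median of -0.34.

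Cell cycle lists were called in shares near those of all members. Of 40 members of G1/S and replication, 4 were higher and 2 lower, with medians of 0.19 and, in the control pair, -0.16, while the 46 chosen on total RNA alone had 3 higher, 9 lower and a median of 0.01. UHRF1, a reader of hemimethylated DNA, was at 2.14 (1.90 to 2.37) against 2.36 in the control pair. CCNE1, the cyclin of S phase entry, was at 1.98 (1.37 to 2.53) against 0.13, on 55 and 9 pulldown reads. Of 37 mitotic members, 3 (8.11%) were higher and 3 lower, with a median recovery of -0.41 and a control pair median of -0.31; the 41 chosen on total RNA alone had 2 higher, 7 lower and a median of -0.52. The condensin subunit SMC4 was at -1.10 and the spindle checkpoint protein MAD1L1 at 1.23. Under TMM scaling SMC4 lost its call.

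**Figure D5:**
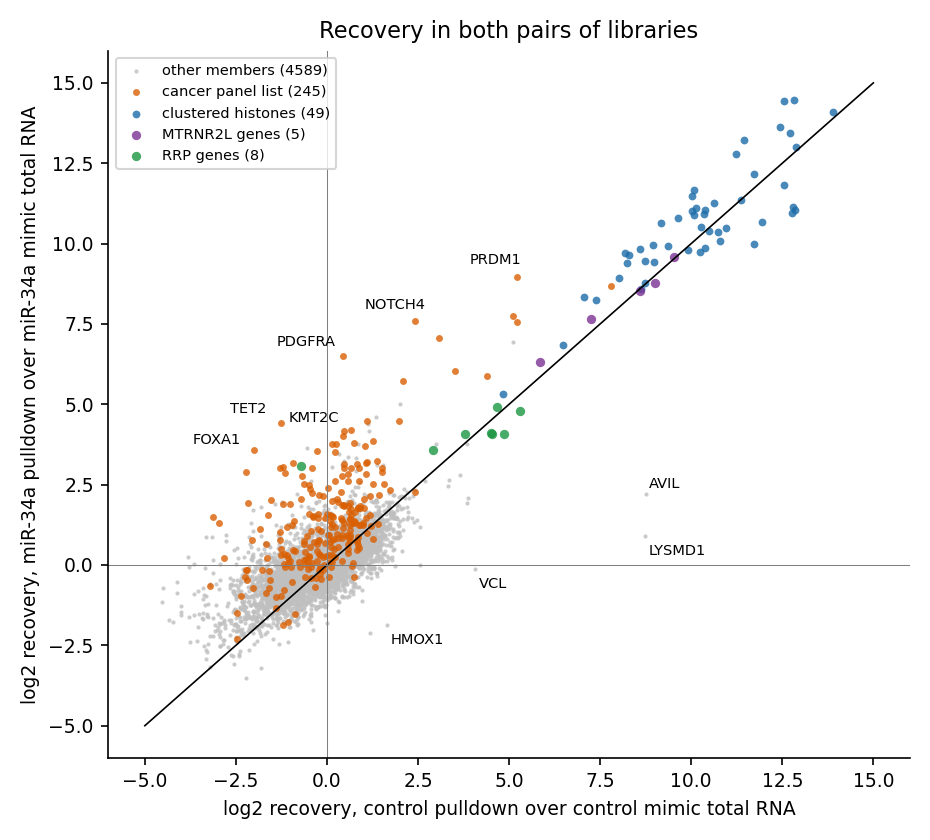
Recovery in the miR-34a pair against recovery in the control pair (both log2), 1 point a member, with the line of equal recovery. Histone (blue) and MTRNR2L (purple) genes lie near the line. Of the 49 histone genes, 11 were called higher than in the control pair and 2 lower. Many cancer panel genes (orange) lie above the line, such as TET2 at 4.42 against -1.25, and LYSMD1, AVIL and VCL lie far below it.

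On the other side, 137 members were lower in the miR-34a pair than in the control pair. Of these, 75 had at least a 2-fold smaller share of the miR-34a than of the control pulldown, and 133 had 20 or more control pulldown reads. The largest differences, in genes named after their values were seen, came from 3 RNAs with an unusually high count in the control pulldown. LYSMD1, a gene of a LysM domain protein, had 38 reads in the miR-34a pulldown, 3918 in the control pulldown, 1593 in the mimic total RNA and 1360 in the control mimic total RNA, a recovery of 0.90 against 8.74. AVIL, which encodes the actin-binding protein advillin, had 22, 948, 372 and 327 reads, a recovery of 2.21 against 8.75. VCL, the gene of the adhesion protein vinculin and a reported target, had 131, 1326, 11151 and 11699 reads, a recovery of -0.12 (-0.50 to 0.23) against 4.07. For these 3 genes the control pulldown held by far the largest share of the 4 libraries, and their total RNA differed by 0.32, 0.28 and 0.02 on the log2 scale, mimic over control mimic.

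In a few genes the total RNA libraries differed more than the pulldowns. In 20 members the share of the mimic total RNA was at least 2-fold above that of the control mimic, by a median of 1.26 on the log2 scale, and the median share of the pulldown differed by -0.06, miR-34a over control. The total RNA ratio enters the difference between the pairs, so a lower recovery follows for such genes from how they were picked. HMOX1, the gene of heme oxygenase 1, had 20 reads in the miR-34a pulldown, 23 in the control pulldown, 5659 in the mimic total RNA and 1076 in the control mimic total RNA. Its total RNA share was higher with the mimic by 2.49 on the log2 scale and its pulldown share differed by -1.03, which gives a recovery of -1.86 (-2.92 to -0.98) against 1.66. EEF1A2, a tissue-restricted elongation factor, had 25, 33, 8550 and 2158 reads, a recovery of -2.13 (-3.06 to -1.34) against 1.18. In 23 members the share of total RNA was at least 2-fold lower with the mimic, by a median of -1.34 with a median pulldown difference of -0.16. Clustered histone genes made up 16 of the 23, and the median recovery of the 23 was 9.82.

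Medians varied little by RNA class and with the deposited UTR subset. The 4617 members with messenger RNA accessions alone had a median of 0.09, the 259 with coding and noncoding accessions -0.18 and the 20 with noncoding accessions alone -0.03. The authors' UTR subset, for which the sources used here give no criterion, held 1325 members with a median of 0.08, of which 12.5% were higher and 8.45% lower. The 3571 members outside it had a median of 0.06, with 12.8% higher and 11.4% lower. Among genes chosen on total RNA alone, the subset had a median of -0.29 over 1480 genes and the rest -0.36 over 4128. Recovery did not follow abundance among genes chosen on total RNA: over 5 groups of rising total RNA level the medians were -0.32, -0.41, -0.34, -0.29 and -0.30, and the Spearman correlation was 0.02. Among members that correlation was -0.47, where the minimum of pulldown reads enters.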

How the data were processed

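The authors deposited read counts per RefSeq transcript, not normalized, and an RPKM value beside each count, in whole tables and in UTR subset tables. Bowtie2, edgeR and hg38 are named in the submitters' processing notes, with no version or role. The worth of 1 read in the deposited RPKM values was the same in both tables within 0.1% for all 15060 transcripts with a value, so RPKM carries no library scaling and served only as an alternative. Of 16650 pulldown and 30073 mimic transcripts, 16587 were joined; these held 99.99% of miR-34a pulldown and 94.1% of mimic reads, and totals are those of all listed transcripts. Date-like gene names were resolved through accessions except for 2. Positions come from the GRCh38.p14 RefSeq table, which matched 4874 of the 4896 members. RPKM gave no usable transcript length, so the planned length comparison used gene span.

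Intervals are Clopper-Pearson intervals on counts divided by 2. The reason is that 90.3% of mimic counts from 2 to 9 were even, as pairs counted as 2 reads would be. In the miR-34a pulldown 61.7% were. Among counts from 10 to 49, 78.4% were even in the mimic, 50.9% in the miR-34a pulldown and 52.3% in the control pulldown. Pulldown counts of that size thus showed little sign of pairs. Undivided counts gave 607 members higher and 168 lower than the control pair, in place of 375 and 137. A library at 0 was set to 3 reads. The interval of recovery was tried on simulated counts that were drawn as pairs, so the trial cannot show whether the real counts are pairs. The interval of the difference between the pairs of libraries was not simulated. Python 3.11.15, scipy 1.17.1 and edgeR 4.0.16 (TMM factors only) were used. Named genes are the 12 highest, 12 lowest and 8 most read members, called targets and, per list, up to 3 members farthest from the median of all members; others are said to be named after their values. Members and gene lists were chosen with earlier results of these data known, the 27 lists of the design among them; 4 more lists were drawn after values of this comparison were seen. A gene that met the naming rule is not reported here.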

Additional observations from a re-analysis of the deposited data

Results flagged for a closer look

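In 7 members the call in the miR-34a pair was opposite to the call in the control pair; with 1 library a group this difference was not tested between samples. Those lower in the miR-34a pair were EEF1A2, with a recovery of -2.13 against 1.18, and HMOX1, with -1.86 against 1.66. Those higher were FANCD2 at 1.02 against -1.29, CTCF at 1.18 against -1.09, DYNC2H1 at 1.24 against -1.39, SDHD at 1.32 against -2.97 and BRIP1 at 1.49 against -3.13. The last group rests on few control pulldown reads: 10 for FANCD2, 16 for CTCF, 11 for DYNC2H1, 3 for SDHD and 2 for BRIP1. Of the 7, 4 are on the cancer panel list.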

How the results depend on the processing

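The main values were 621 members higher, 518 lower, a median recovery of 0.07, and 375 higher and 137 lower than the control pair. Counts stayed within 1.5 times of these under TMM scaling, totals without the 10 most read genes, totals of joined transcripts, and, both chosen after seeing the data, totals without histone and MTRNR2L genes or leaving out the panel genes.

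The other settings moved some counts beyond that. Centring left 212 lower than the control pair. Deposited RPKM shifted every value by -6.29, to a median of -6.22 with 53 higher and 4831 lower. A minimum of 10 reads gave 1008 lower, and 208 lower than the control pair; a minimum of 50 gave 156 lower, and 224 higher and 43 lower than the control pair; no minimum gave 1714 and 393 lower. Choosing on total RNA gave 310 higher, 1395 lower and 214 lower than the control pair. Genes with 1 listed transcript, a smaller set of 2784, gave 412 higher and 273 lower, and 244 and 82 against the control pair. A 4-fold rule gave 178 higher and 61 lower, and 171 and 7 against the control pair. Undivided counts gave 607 higher than the control pair, and a 99% interval gave 183 and 82.

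Without panel genes, growth factor signalling lay -0.10 from the median member instead of 1.12, the reported targets -0.17 instead of 0.30, and Notch and Wnt genes -0.13 instead of 0.21; at a minimum of 50 reads Notch and Wnt lay at 1.57. No paired analysis was possible because each group has 1 library; for the same reason leaving out a library was not run. Depth limits the pulldown: the counting interval of a member had a median half-width of 0.62.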
